A study of Mus musculus with 4 samples.

Results

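The 10 genes described here, Ppargc1a, Ppargc1b, Nrf1, Esrra, Tfam, Mfn1, Mfn2, Opa1, Dnm1l and Pink1, control how many mitochondria a mouse cell makes and how these fuse, divide and are cleared. They were chosen by function, and every peak was taken whose midpoint lay inside the mm10 span of a gene or within 50000 bp of it. These windows held 484 of 585165 peaks in the Sod2 knockout library, 389 of 433013 in the control library, 328 of 347438 in the rotenone library and 335 of 340240 in the vehicle library. Dermal fibroblasts of C57BL/6 mice had been profiled by ATAC-seq, an assay of open chromatin in which the transposase Tn5 cuts DNA that nucleosomes leave free, with 1 library per group. The groups were Sod2-/- fibroblasts of a conditional knockout, their Sod2+/+ control, Sod2+/+ fibroblasts given rotenone labelled at 250 µM, and Sod2+/+ fibroblasts given vehicle. All 4 samples carry the label 100 days without saying what the days count, and the Cre line of the knockout, the number of animals behind a library and the length of the rotenone treatment were not found in the labels. Sod2 encodes the superoxide dismutase of the mitochondrial matrix and rotenone blocks respiratory complex I, so both disturb the organelle that these genes build and reshape.

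As background, the coactivators PGC-1α (Ppargc1a) and PGC-1β (Ppargc1b) bind the transcription factors NRF1 and ERRα (Esrra). Together these switch on nuclear genes for mitochondrial proteins, among them Tfam, whose product packages and transcribes mitochondrial DNA. The mitofusins MFN1 and MFN2 join outer membranes and OPA1 joins inner membranes, the dynamin DRP1 (Dnm1l) divides mitochondria, and the kinase PINK1 marks damaged ones for removal by autophagy. PGC-1α is best known for its induction in brown fat, muscle and liver under cold, exercise and fasting.

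Across the series, a peak was called strong when it stood among the 30000 peaks of its library with the highest −log10 p given by the authors' peak caller. The fold enrichment of a peak over its local background is also the authors' value. The median fold of the strong peaks was 5.49 in the knockout and 6.78 in control, and 5.99 in rotenone and 7.13 in vehicle, so the strong peaks had a lower median fold in the knockout and rotenone libraries. Read depth is unknown, folds were not scaled between libraries, and with 1 library per group no difference below has a replicate check or a p-value. Of 15 fibroblast markers, 4 had a strong start site peak in the knockout, 5 in control, 5 in rotenone and 4 in vehicle, and Col1a2, Vim and S100a4 had one in each library. The share of all protein-coding genes with a strong start site peak was 37.3% in the knockout, 37.3% in control, 38.1% in rotenone and 37.2% in vehicle. The fibroblast markers thus did not stand above genes at large. The keratinocyte, immune, skeletal muscle and pericyte markers had 0 in every library, and of the endothelial markers Tek had one in each and Tie1 in vehicle. Among 6 markers of melanocytes and Schwann cells, strong start site peaks were seen for 3 in the knockout, 2 in control, 2 in rotenone and 3 in vehicle. Of 5 adipocyte markers, Fabp4 had a strong start site peak in the knockout and rotenone libraries, against 0 of the 5 in control and vehicle. The part of these markers in the results below was not tested.

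Sequences near the start sites of 6 of these genes are shown first, since the start site peaks described below were read there. Of the 6, 5 carry a motif of NRF1 or of ETS factors. RefSeq promoter windows (GRCm38.p6, 250 bases before to 50 after a start site) were held for 9 of the 10 genes, in 13 windows, and Ppargc1b was not covered. In each line below, capitals mark the motif, and positions count from the start site, with -1 the base before it. The NRF1 core, GCGCATGC on either strand, was found at Opa1, where the match on each strand overlaps the other, and at Esrra.
Opa1 NRF1 core, chr16:29579264-29579293, plus strand, -70 to -41: agtggctccccGCGCATGCGCatgtcatcc
Esrra NRF1 core, chr19:6921824-6921853, minus strand, -45 to -16: ccccctgttttGCATGCGCaggccggcccc

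The ETS motif, CCGGAAG on either strand, which factors such as GABPA bind, was found at Mfn1, Tfam and Dnm1l.
Mfn1 ETS, chr3:32529427-32529456, plus strand, -55 to -26: gatccgaagcgCCGGAAGtagccgccccta
Tfam ETS, chr10:71238073-71238102, minus strand, -58 to -29: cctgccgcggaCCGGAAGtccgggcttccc
Dnm1l ETS, chr16:16358545-16358574, minus strand, 2 to 31 of its inner start site: gctgtcgcttcCTTCCGGccgctgaggacg

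For AP-1, made of JUN and FOS proteins such as the JunB of the study's title, the letters TGANTCA were searched, with any base at the centre. Among the 9 genes the sole match was TGATTCA at Opa1, at -234 to -228. This place lay inside the Opa1 start site peak in the knockout and control libraries. In rotenone and vehicle that peak began at -164, so the match lay outside it. The stretch of the Opa1 promoter upstream of the gene's annotated span is given next with this motif and 3 matches to the SP box GGGCGG in capitals.
Opa1 promoter, chr16:29579084-29579280, plus strand, -250 to -54: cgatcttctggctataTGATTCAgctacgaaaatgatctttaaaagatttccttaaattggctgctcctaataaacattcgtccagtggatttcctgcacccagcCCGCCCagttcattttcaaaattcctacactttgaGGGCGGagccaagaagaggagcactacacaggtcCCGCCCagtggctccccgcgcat

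Mfn2 is shown as a start site that was weakly open in all 4 libraries. Its 250 upstream bases hold 1 SP box and none of the other 5 motifs searched. Pink1, whose start site peak was strong in all 4 libraries, likewise had SP boxes and none of the other 5.
Mfn2 promoter, chr4:147904910-147905159, minus strand, -250 to -1: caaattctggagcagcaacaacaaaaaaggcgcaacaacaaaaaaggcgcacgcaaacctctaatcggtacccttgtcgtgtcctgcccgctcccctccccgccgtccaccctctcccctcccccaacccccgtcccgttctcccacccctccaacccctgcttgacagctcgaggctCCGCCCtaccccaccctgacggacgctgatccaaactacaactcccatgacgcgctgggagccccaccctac

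Among all 32851 promoter windows, 2.71% held the NRF1 core, 8.86% the ETS motif, 7.81% the AP-1 motif and 35.7% the SP box. The SP box, which SP1 and its relatives bind, was found in 9 of the 13 windows, at 8 of the 9 genes. The ERR motif AAGGTCA (4.72% of all windows) and the CRE motif TGACGTCA (1.79%) were found at 0 of the 9. Both strands were searched for every motif, and a match describes letters in the window, not a bound factor.

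Start site peaks, within 1000 bp of a listed start site, were present at all 10 genes in every library, beside 73.1% of all 21887 protein-coding genes in the knockout, 72.3% in control, 69% in rotenone and 70.6% in vehicle. They were strong at 7 of the 10 in each library. Over all 21887 protein-coding genes, 37.3% had a strong start site peak in the knockout, 37.3% in control, 38.1% in rotenone and 37.2% in vehicle. A strong start site peak was present in all 4 libraries at Esrra, Tfam, Mfn1, Opa1, Dnm1l and Pink1, 6 of 10 genes, against 31.2% of all genes. Ppargc1a and Mfn2 had a start site peak outside the 30000 strongest in every library, and Ppargc1b and Nrf1 had a strong one in some libraries and not in others. With a window of 2500 bp the Ppargc1a and Mfn2 values became those of stronger neighbouring regions described below, at 9.16 and 9.84 in the knockout, 11.1 and 11.1 in control, 9.03 and 10.1 in rotenone, and 13.95 and 11.05 in vehicle.

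**Figure D1:**
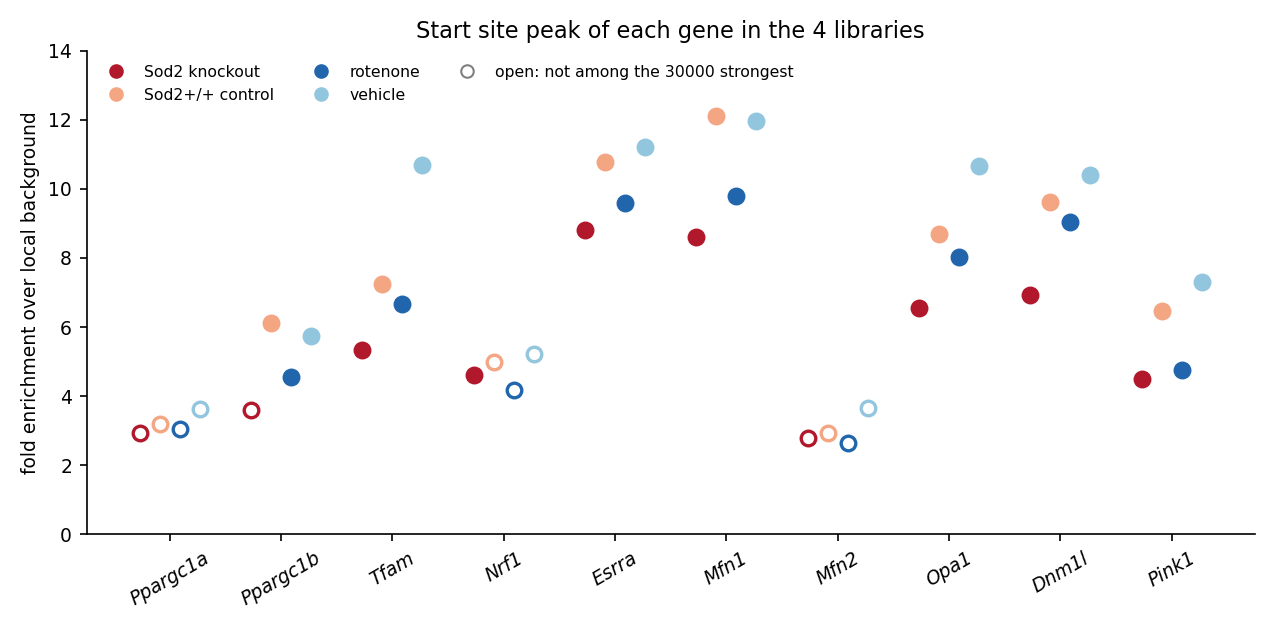
Fold enrichment of the highest ranked start site peak of each gene (y axis) in the Sod2 knockout, control, rotenone and vehicle libraries, 1 point per library; filled points are among the 30000 strongest of their library. All 10 genes have the knockout point below the control point and the rotenone point below the vehicle point, though the Mfn2 rotenone and vehicle peaks do not overlap; Esrra and Mfn1 are highest and Ppargc1a and Mfn2 lowest.

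Of the coactivator genes, Ppargc1a was weakly open at its start site, while Ppargc1b had a strong peak in control, rotenone and vehicle. Only 1 start site was listed for Ppargc1a, at 51567725 on chromosome 5, inside a listed span that runs upstream of it to 52115853. The best Ppargc1a start site peak had a fold of 2.93 in the knockout and 3.18 in control, and 3.05 in rotenone and 3.64 in vehicle, and none was among the 60000 highest ranked. The peaks were 125 bp wide in the knockout and 722 bp in control, and 192 bp in rotenone and 879 bp in vehicle. The narrow knockout and rotenone peaks lay at different places, each inside the stretch covered by its partner's peak. For Ppargc1b, on chromosome 18, the strand was not used here, so both gene ends were searched, and the peak lay at the end at 61400756. Its fold was 3.60 in the knockout and 6.13 in control, and 4.55 in rotenone and 5.73 in vehicle. The knockout peak, ranked 43079, was the only 1 of the 4 outside the strong list. The rotenone and vehicle peaks, ranked 29792 and 28030, were just inside it, so the limit of 30000 decides this difference.

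The transcription factor genes differed from each other. Esrra, which encodes the orphan receptor ERRα, had 1 of the most enriched start site peaks of the 10 genes, with a fold of 8.80 in the knockout and 10.8 in control, and 9.59 in rotenone and 11.2 in vehicle. Nrf1, which encodes the activator of many nuclear genes for respiratory chain proteins, had a fold of 4.62 in the knockout and 4.995 in control, and 4.19 in rotenone and 5.22 in vehicle. The Nrf1 peak ranked 24063 in the knockout, and 33354, 33465 and 33272 in control, rotenone and vehicle. It was therefore strong in the knockout alone while its fold there was below that in control. It was also the sole strong peak in the Nrf1 window in any library. The Esrra peak was the 1 of the 6 always-strong start site peaks that ranked better in both the knockout and rotenone libraries, at 2484 in the knockout and 4759 in control, and 2812 in rotenone and 4757 in vehicle. Over all genes with a strong start site peak in the 4 libraries, 38.7% ranked better in both, so this is common.

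Tfam had a start site fold of 5.33 in the knockout and 7.23 in control, and 6.67 in rotenone and 10.7 in vehicle. The width also differed, with 481 bp in the knockout and 939 bp in control, and 350 bp in rotenone and 468 bp in vehicle. The 939 bp control peak ran from position -379 to 559 relative to the start site, past the ends of the other 3 (the plot of peak extents).

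Among the fusion genes, Mfn1 had the highest start site fold of the 10 genes in control, rotenone and vehicle, and the next to highest, after Esrra, in the knockout. It was 8.61 in the knockout and 12.1 in control, and 9.81 in rotenone and 11.95 in vehicle. Opa1, whose protein also keeps the cristae closed, had 6.54 in the knockout and 8.70 in control, and 8.04 in rotenone and 10.7 in vehicle. At Mfn2, which also tethers mitochondria to the endoplasmic reticulum, the fold at the start site was 2.78 in the knockout and 2.93 in control, and 2.64 in rotenone and 3.65 in vehicle. The rotenone peak, from 163 to 261 bp downstream of the start site, did not overlap the vehicle peak, so these are values of different places. The Mfn2 start site fold was the lowest of the 10 genes in the knockout, control and rotenone, so the mitofusin genes stood near opposite ends of the list. This placing holds for the window of 1000 bp. With 2500 bp the Mfn2 fold was above that of Mfn1 in the knockout and rotenone, and below it in control and vehicle. A much stronger Mfn2 region lay just outside the start site window, 1260 bp upstream of the gene, at chromosome 4, 147906169-147906817. Its fold was 9.84 in the knockout and 11.08 in control, and 10.1 in rotenone and 11.05 in vehicle, and it ranked between 612 and 856 in the 4 libraries. No other protein-coding start site in the table was nearer to it than that of Mfn2.

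The fission gene Dnm1l, which encodes the dynamin that constricts mitochondria, had a start site fold of 6.93 in the knockout and 9.61 in control, and 9.03 in rotenone and 10.4 in vehicle. Pink1 had 4.49 in the knockout and 6.47 in control, and 4.74 in rotenone and 7.30 in vehicle. The Pink1 peak lay mostly inside the gene and reached 718 to 797 bp downstream of the start site. In the knockout and vehicle libraries its highest ranked part began 147 and 162 bp inside the gene, while in control and rotenone it spanned the start site.

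**Figure D2:**
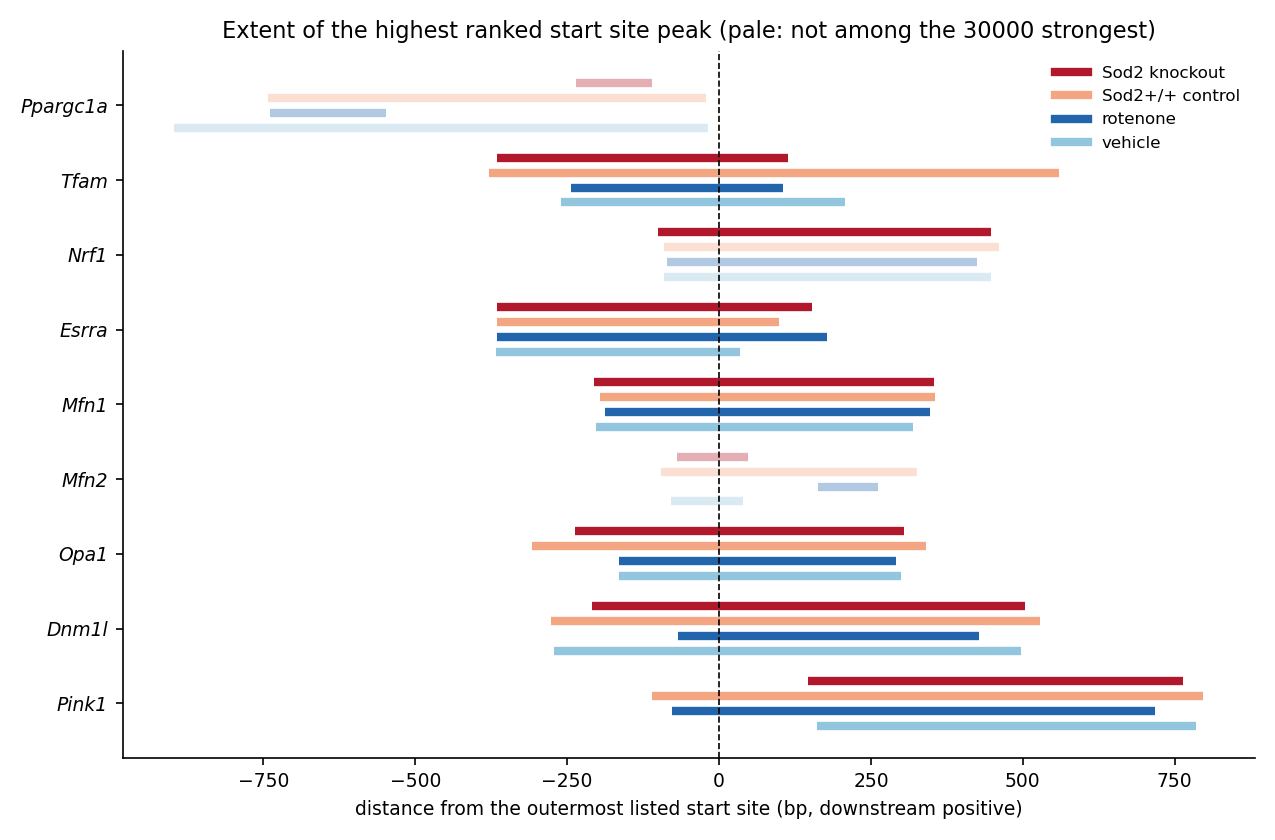
Extent of the highest ranked start site peak of 9 genes along the DNA (x axis, bp from the outermost listed start site, downstream positive) in each library; pale bars are outside the 30000 strongest, and Ppargc1b is left out because its strand was not used. The Mfn1 peaks nearly coincide in the 4 libraries, and the control peaks of Tfam, Opa1 and Dnm1l are the widest of their genes.

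The start site fold was lower in the knockout than in control, and lower in rotenone than in vehicle, at all 10 genes, with the Mfn2 rotenone and vehicle values from peaks that do not overlap. Over the 13601 genes with a start site peak of any strength in all 4 libraries, 60.7% had a lower fold in both the knockout and rotenone. For start site peaks strong in all 4 libraries it was 6 of 6, beside 61.5% of all such genes, with 76.3% lower in the knockout than in control and 72.3% lower in rotenone than in vehicle. For the 6 always-strong genes the median fold was 6.73 in the knockout and 9.15 in control, beside 6.86 and 7.98 over the 6835 genes with such peaks. In the rotenone comparison it was 8.54 in rotenone and 10.7 in vehicle, beside 7.54 and 8.47 over all such genes. Both the vehicle and the control cells are Sod2+/+ without rotenone, and their medians were 10.7 in vehicle and 9.15 in control, beside 8.47 and 7.98. The fold of the 6 genes was lower in vehicle at 1 of them, beside 34% of all such genes. In direction the lower folds thus went the way of most genes in these libraries, whose strong peaks had a lower median fold. The medians of the 6 genes lay further apart than those over all such genes, and this held for vehicle against control too. The part of library enrichment in these differences was not tested.

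Beyond the start sites, the windows held 42 strong peaks in the knockout and 41 in control, and 39 in rotenone and 41 in vehicle. The median per window was 3.5 in the knockout and 4 in control, and 3.5 in rotenone and 4 in vehicle, against a median of 2 or 3 over all protein-coding genes. The windows differ in length, and per 100000 bp the medians were 2.14 in the knockout and 2.01 in control, and 2.01 in rotenone and 2.01 in vehicle, beside 1.80 in the knockout, 1.76 in control, 1.82 in rotenone and 1.78 in vehicle over all genes. Ppargc1a, whose span of 661605 bp is the longest of the 10, held 10 in the knockout and 8 in control, and 7 in rotenone and 10 in vehicle, level with Mfn1 in control and with Esrra in rotenone. Nrf1, with 105474 bp, held 1 in the knockout and 0 elsewhere. Per 100000 bp of window, Esrra was the richest in the knockout, with 5.40, and Ppargc1b and Nrf1 the poorest, with 0.478 and 0.487.

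**Figure D3:**
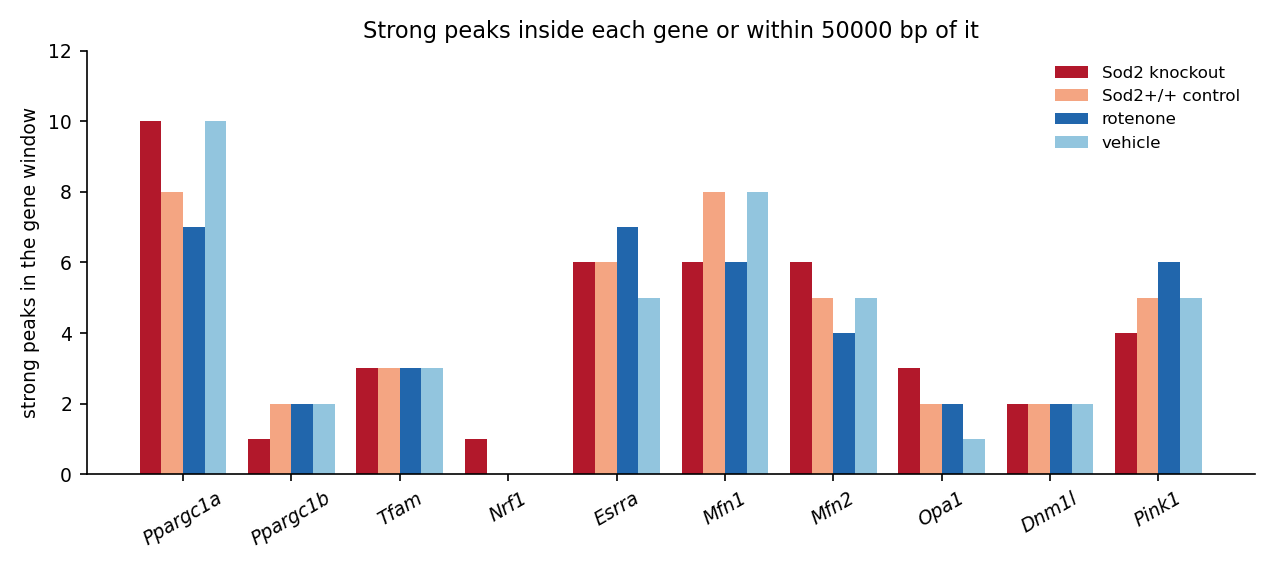
Number of strong peaks (y axis) inside each gene or within 50000 bp of it, in the Sod2 knockout, control, rotenone and vehicle libraries. Counts differ by at most 3 between the libraries of a comparison; Tfam has 3 and Dnm1l 2 in every library.

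Merged over the libraries, the strong peaks formed 54 regions, of which 31 were strong in all 4 libraries, beside 46.1% of all 42457 merged regions. Only 23 of the 54 lay inside one of the 10 genes, and for 30 the nearest listed start site belonged to another gene. Of these, 11 lay over that other gene's start site, among them those of Miip, Ddost, Yars2, Gpr137 and Ube2d1, so a strong region in a window is not by itself a region of the gene. The strongest region in the Mfn2 window, at chromosome 4, 147868297-147868889, lay over the start site of Miip. Its fold was 14.7 in the knockout and 13.0 in control, and 14.6 in rotenone and 14.6 in vehicle. Among the 31 regions strong in all libraries, 23 had a lower fold in the knockout than in control, beside 80.2% of all such regions, and 25 had a lower fold in rotenone than in vehicle, beside 76.7%. Both held at 20 of the 31, beside 67.7%. In vehicle 11 of the 31 were lower than in control, beside 35.4%. A further 12 of the 54 regions were strong in 1 library, beside 23.8% of all merged regions.

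The Ppargc1a window spans 761605 bp and held 1.31 strong peaks per 100000 bp in the knockout and 1.05 in control. It held 0.919 in rotenone and 1.31 in vehicle, and each value was below the median over all genes given above. Weakly open at its start site, the gene had 14 strong regions in this window, of which 11 lay inside the gene and 6 were strong in all 4 libraries. Of these 6, the highest ranked lay 27627 bp upstream of the start site, at chromosome 5, 51595352-51596119, with a fold of 9.59 in the knockout and 9.97 in control, and 9.64 in rotenone and 10.9 in vehicle. The most enriched in vehicle lay 300398 bp upstream, at 51868123-51868825, with 8.75 in the knockout and 11.4 in control, and 8.22 in rotenone and 14.2 in vehicle. The region nearest to the start site, 2356 bp downstream at 51564910-51565369, had 9.16 in the knockout and 11.1 in control, and 9.03 in rotenone and 13.95 in vehicle. These 3 regions had lower folds in the knockout than in control and in rotenone than in vehicle, and the other 3 of the 6 each went the other way in 1 comparison. At 51433989-51434371 the fold was 7.46 in the knockout and 7.10 in control, and 6.58 in rotenone and 6.65 in vehicle. At 51545014-51545787 it was 8.03 in the knockout and 8.88 in control, and 9.66 in rotenone and 8.96 in vehicle. At 51766190-51766519 it was 7.70 in the knockout and 10.6 in control, and 10.4 in rotenone and 9.39 in vehicle. The direction was thus shared by 3 of the 6 regions.

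A pair of further Ppargc1a regions were strong in control and vehicle and not in the knockout or rotenone. At 51607567-51608521, 39842 bp upstream of the start site, the fold was 4.11 in the knockout and 7.83 in control, and 3.96 in rotenone and 8.94 in vehicle. The knockout and rotenone peaks ranked 30773 and 40342, and the control and vehicle peaks 9937 and 8550. At the far 5′ end of the gene's listed span, at 52115641-52116397, the fold was 3.54 in the knockout and 5.64 in control, and 4.397 in rotenone and 5.41 in vehicle. Both regions kept a peak among the 60000 highest ranked in every library, so neither was called lost. In Mfn1 the same pattern was seen inside the gene, at chromosome 3, 32553235-32553338, with 3.42 in the knockout and 7.07 in control, and 4.64 in rotenone and 6.24 in vehicle. It was also seen at 32508744-32508927, 1665 bp from the start site of Zfp639, with 3.58 in the knockout and 4.22 in control, and 3.49 in rotenone and 5.12 in vehicle. These 4 of the 54 merged regions stand beside 7.52% of all merged regions with the pattern, so it was about as frequent here as elsewhere. The limit of 30000 decides some of them, since the rotenone peak inside Mfn1 ranked 30317 and the knockout peak at 51607567 ranked 30773. The count of 4 became 1 with strong lists of 15000, 13 with lists of 60000, and 2 with peaks under 100 bp left out. The opposite pattern, strong in the knockout and rotenone and not in control or vehicle, was seen at 1 of the 54, in Opa1, beside 6.18% of all.

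**Figure D4:**
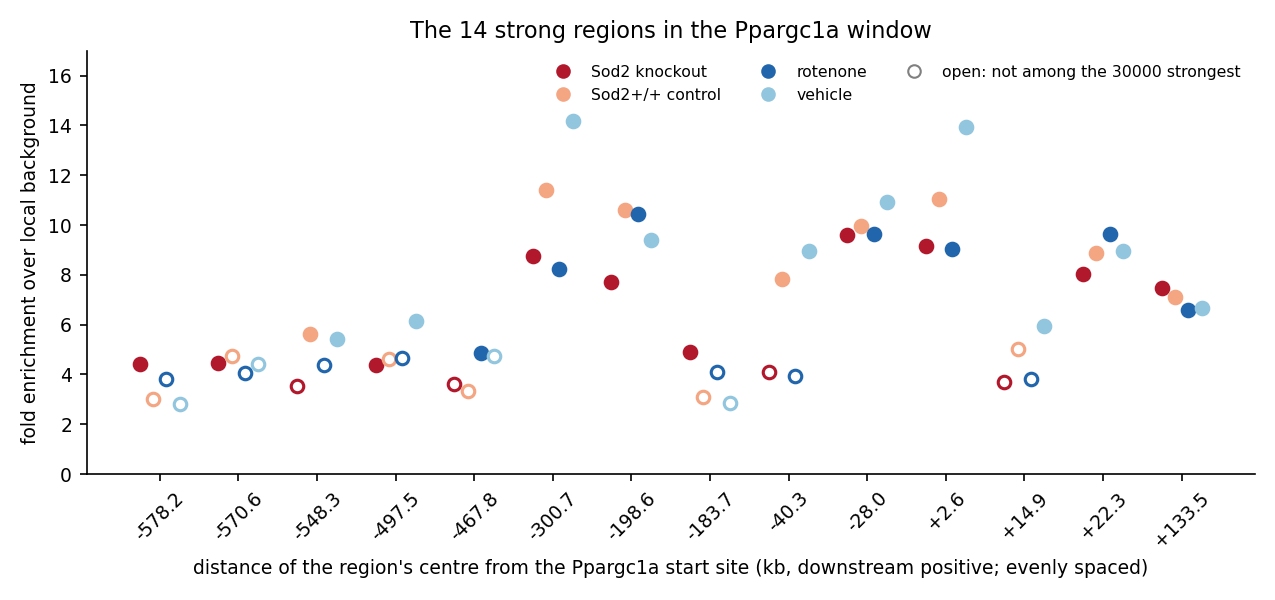
Fold enrichment (y axis) of the 14 merged strong regions in the Ppargc1a window in each library, ordered by distance of the region's centre from the start site (x axis, kb, evenly spaced, downstream positive); open points are outside the 30000 strongest. At 40.3 kb upstream the knockout (4.11) and rotenone (3.96) points lie below the control (7.83) and vehicle (8.94) points.

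Outside Ppargc1a, the regions away from the start sites with the best rank in any library often lay near other genes. The Ppargc1b one was inside the gene, at chromosome 18, 61394865-61395111, 5645 bp from its end, with a fold of 5.13 in the knockout and 7.68 in control, and 8.26 in rotenone and 9.38 in vehicle. That of Tfam was also inside the gene, at chromosome 10, 71226036-71226185, with 5.40 in the knockout and 6.55 in control, and 5.26 in rotenone and 7.38 in vehicle. Both were strong in all 4 libraries and lower in the knockout and rotenone than in their partners. In the Esrra window it lay over the start site of Gpr137, with 7.86 in the knockout and 9.51 in control, and 7.22 in rotenone and 8.495 in vehicle. In the Dnm1l window it lay over the start site of Yars2, with 8.51 in the knockout and 6.11 in control, and 5.97 in rotenone and 8.22 in vehicle. The Yars2 region was thus higher in the knockout than in control and lower in rotenone than in vehicle. In the Pink1 window it lay over the start site of Ddost, with 12.1 in the knockout and 11.1 in control, and 9.22 in rotenone and 10.3 in vehicle. In the Mfn1 window the best ranked region differed between libraries. In the knockout and rotenone it lay 32185 bp from the gene and 4287 bp from the start site of Kcnmb3, with 10.3 in the knockout and 7.66 in control, and 11.4 in rotenone and 8.23 in vehicle. In control and vehicle it lay 1116 bp from the start site of Gnb4, at 32615286-32615557, with 10.2 in the knockout and 10.2 in control, and 10.8 in rotenone and 12.6 in vehicle. The Kcnmb3 region was 1 of 3 among the 31 always-strong regions with a higher fold in both the knockout and rotenone, beside 10.8% of all such regions. The others lay over the start sites of Cda, in the Pink1 window, and Zfp933, in the Mfn2 window.

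Regions were called gained (lost) when they were strong in the knockout, rotenone or vehicle library (in its partner) and overlapped none of the 60000 highest ranked peaks of the partner (of that library). In the knockout 4 of 42 strong peaks were gained, beside 5.33% of all strong peaks, and 0 of 41 control peaks were lost, beside 6.76%. This balance depended on the settings, with 0 gained and 1 lost for strong lists of 15000, 4 and 12 for lists of 60000, and 4 and 5 when 50% of a peak had to be covered. The gains lay in 2 of the 10 windows, beside 11% of all gene windows. The best ranked lay inside Ppargc1a, at chromosome 5, 51751382-51751535, 183657 bp upstream of the start site. Its fold was 4.89 in the knockout and 3.08 in control, and 4.09 in rotenone and 2.84 in vehicle. The other in this window lay 29979 bp outside the gene, at 52145832-52145964, with 4.41 in the knockout and 3.00 in control, and 3.82 in rotenone and 2.83 in vehicle. In both the rotenone value was also above the vehicle value, but ranks of 41657 and 49184 kept these peaks out of the strong list. The 2 gains in the Mfn2 window lay near another gene, 2510039O18Rik, 33768 and 35927 bp from Mfn2. Their folds were 3.89 and 4.26 in the knockout, and 3.01 and 3.02 in control. In rotenone they were 3.45 and 3.46, and in vehicle 3.66 and 2.56. The control peaks ranked 65959 and 67365, so the limit of 60000 decides both calls. In all 4 places a weaker control peak was present, so 0 were gained when any control peak counted as a partner, beside 0.243% of all strong peaks, and 0 were lost by that rule, beside 0.343%.

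In the rotenone comparison 3 of 39 strong peaks were gained, beside 6.81% of all, and 1 of 41 vehicle peaks was lost, beside 8.04%. The gains lay in 3 of the 10 windows, beside 13.8% of all gene windows, and the loss in 1, beside 17.4%. The Opa1 gain, inside the gene at chromosome 16, 29644994-29645135, 65660 bp downstream of the start site, had a fold of 5.11 in rotenone and 3.28 in vehicle. The same place had 4.63 in the knockout, where it was strong, and 3.83 in control. The Tfam gain lay 451 bp downstream of the start site, at chromosome 10, 71237492-71237593, with 5.96 in rotenone and 2.94 in vehicle. In control this place was covered by the wide 939 bp start site peak described above (fold 7.23), and in the knockout its best peak had a fold of 2.22. The Tfam gain is part of the merged start site region of the gene, which was strong in all 4 libraries. The best fold of that region was lower in rotenone, at 6.67, than in vehicle, at 10.7. The Esrra gain, at chromosome 19, 6924580-6924655, lay 725 bp from the start site of Catsperz, with 4.73 in rotenone and 3.44 in vehicle. Its width of 76 bp was the smallest of the called regions. The loss lay in the Mfn2 window at chromosome 4, 147866932-147867101, 1415 bp from the start site of Miip. It had no peak of any strength in rotenone and a fold of 4.26 in vehicle, and 2.32 in the knockout and 3.31 in control. It was the sole region in the 10 windows lost with no partner peak of any strength, a rule that 0.943% of all strong vehicle peaks met, and 0 were gained by that rule, beside 0.773%. Vehicle against control gave 0 gained and 0 lost regions in the windows, beside 1.03% and 0.847% of all strong peaks, and likewise 0 and 0 with no partner peak of any strength, beside 0.11% and 0.0867%. Some of these shares differ from those of all peaks, but the counts are too small and too dependent on the settings to set the 10 windows apart.

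**Figure D5:**
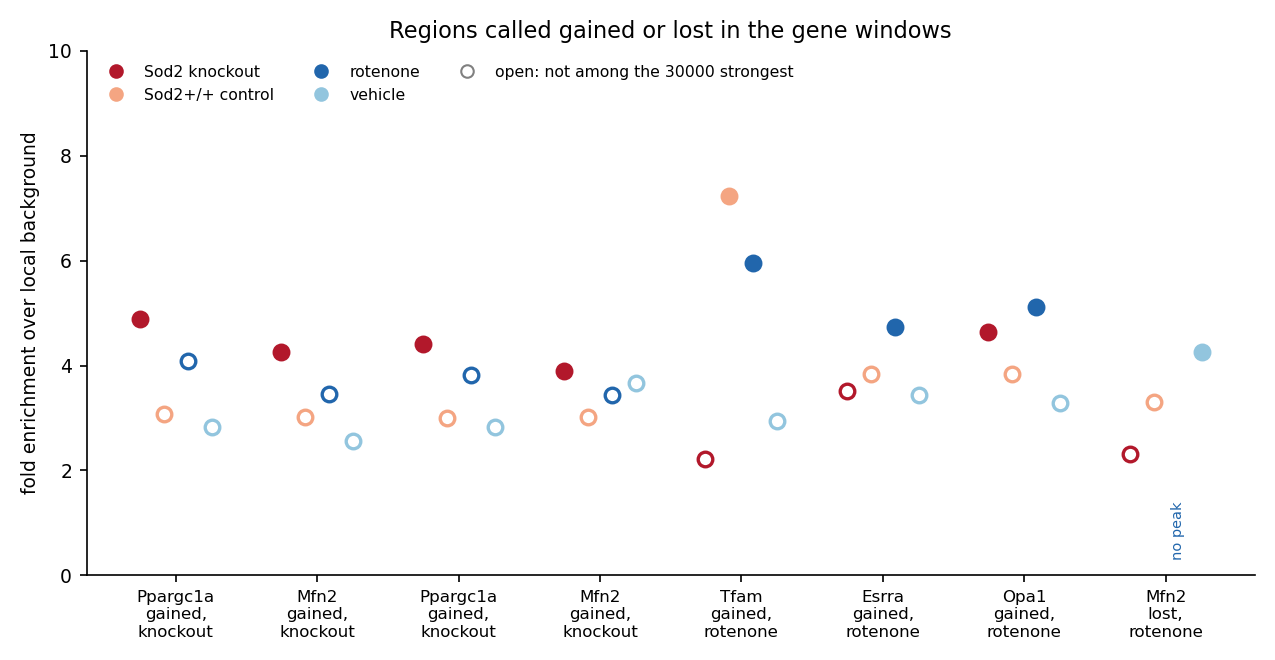
Fold enrichment (y axis) in each library at the 8 regions called gained or lost, named by gene window, direction and comparison (x axis); open points are outside the 30000 strongest and "no peak" marks a library with no overlapping peak. The knockout point is the highest at each of the 4 knockout gains, and rotenone has no peak at the lost Mfn2 region.

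A list of 74 further genes of mitochondrial biogenesis, dynamics and quality control was read the same way. A strong start site peak was present at 53 of 74 in the knockout and 54 in control, and at 51 in rotenone and 51 in vehicle, and at 46 in all 4. Over all protein-coding genes the shares were 37.3% in the knockout, 37.3% in control, 38.1% in rotenone, 37.2% in vehicle and 31.2% in all 4. In the group for the upkeep and expression of mitochondrial DNA, 12 of its 14 genes had a strong start site peak in every library, beside 31.2% of all genes. These included Tfb1m and Tfb2m, transcription factors of mitochondria, Polrmt, the mitochondrial RNA polymerase, and Polg and Twnk, the polymerase and helicase that copy mitochondrial DNA. Mterf1a had no start site peak of any strength in the 4 libraries. Among 15 biogenesis regulators 8 were strong in each library, including Gabpa, the ETS factor, and Pprc1, a PGC-1 relative. The kinase genes Prkaa1 and Prkaa2, which encode catalytic subunits of AMPK, were strong in 0 libraries.

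Of 11 fission genes 7 had a strong start site peak in the knockout and 9 in control, and 6 in rotenone and 8 in vehicle. The DRP1 receptor genes Mff, Mief1, Mief2 and Fis1 were strong in all 4 libraries. Mtfp1 had no start site peak in the knockout or rotenone and a weak one in control (fold 2.32) and vehicle (fold 2.83), and Spire1 had none in rotenone. Inf2, which encodes a formin, had a fold of 4.10 in the knockout and 5.68 in control, and 3.95 in rotenone and 5.65 in vehicle, and was strong in control and vehicle. For 14 fusion and cristae genes the counts were 12 in the knockout and 12 in control, and 10 in rotenone and 10 in vehicle. For 20 genes of mitophagy and quality control they were 14 in the knockout and 13 in control, and 15 in rotenone and 13 in vehicle. The mitophagy receptor gene Bnip3 was strong in the knockout alone, with a fold of 4.48 in the knockout and 4.16 in control, and 3.67 in rotenone and 3.93 in vehicle. Calcoco2 had no start site peak in rotenone.

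In the windows of the 74 genes, 9 of 288 strong peaks were gained in the knockout (3.12%, beside 5.33% of all) and 14 of 257 control peaks lost (5.45%, beside 6.76%). The gains with most regions or the best rank were at Spire1, Clpp, Afg3l2, Chchd6 and Gabpa. The Clpp one had a fold of 1.49 and no peak in the other 3 libraries. The losses were led by Tomm20, Stoml2, Phb2, Ssbp1 and Lrpprc. At the Phb2 one, chromosome 6, 124702851-124702994, the fold was 2.69 in the knockout and 6.67 in control, and 3.32 in rotenone and 7.32 in vehicle. The region near Ssbp1, at 40423878-40424027 on the same chromosome, had 2.95 in the knockout and 7.28 in control, and 3.08 in rotenone and 6.90 in vehicle. Both were called lost in the knockout and in rotenone, but they lay 9295 and 47387 bp from Phb2 and Ssbp1 and nearer to the start sites of Emg1 and Dennd11. In rotenone 15 of 273 strong peaks were gained (5.49%, beside 6.81%) and 14 of 267 vehicle peaks lost (5.24%, beside 8.04%). The gains included 2 at Atf2 and those at Tomm7, Inf2 and Chchd3. The losses were led by Sirt3 with 2, Phb2, Spire1, Ssbp1 and Bcl2l13. Vehicle against control gave 2 gained of 267 (0.749%, beside 1.03%), at Polg2 and Prkaa2, and 4 lost of 257 (1.56%, beside 0.847%), among them those at Inf2, Bcl2l13 and Tfb1m.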

How the data were processed

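ATAC-seq peak lists of 4 libraries of mouse dermal fibroblasts, 1 per group, were used as deposited. Per the submitters' processing notes, Bowtie2, bedtools, MACS2 and HOMER and build mm10 were used, and no version or setting was found there. The deposited lists have no header, and their columns were read in the order of a MACS2 broad peak list. Each peak's fold enrichment and its −log10 p and −log10 q are the authors' values, and the lowest −log10 q of each list lies just above that of a q-value of 0.1. The deposited score of each peak was not used. Longer lists therefore hold more weak peaks, and depth is unknown.

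Peaks were ranked within a library by −log10 p, with ties broken by fold enrichment, and the 30000 highest ranked were called strong. A strong peak was gained or lost if it overlapped, by 1 bp or more, none of the 60000 highest ranked peaks of the partner library. Strong peaks of the 4 libraries that overlapped were merged into regions, and a region's fold in a library is that of its highest ranked peak there. Start sites came from RefSeq promoter windows (GRCm38.p6, the mm10 assembly) for 17492 of 21887 protein-coding genes, and the other 4395, Ppargc1b among them, were read at both gene ends. A start site peak overlaps the 1000 bp on either side.

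All 10 genes are named, with each region called gained or lost and the highest ranked strong region away from a start site. Of the 74 further genes, up to 5 per comparison and direction with most called regions are named (ties by best rank), and those with no start site peak in some library. A gene that this rule names is not reported here. Other genes of that list are named as examples, chosen after their values were seen. The genes, lists and rules were chosen with earlier results of these data known. Python 3.11.15, numpy 2.4.6, pandas 2.3.3 and matplotlib 3.10.9 were used. The calling steps were run on the deposited lists after partner peaks were taken out at chosen places. Those places had then to be called, so this checks only that the code works. No test was made between groups. Alternatives changed the list lengths, ranking, overlap, smallest width and windows.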

Additional observations from a re-analysis of the deposited data

How the results depend on the processing

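No paired analysis was possible because each group has 1 library and the labels give no replicate numbers. Counts of strong and called peaks moved with the settings. The start site fold stayed lower in the knockout and in rotenone than in its partner at all 10 genes under the 5 settings run on it. The exception was Mfn2 in rotenone, which had no start site peak once peaks under 100 bp were left out. List lengths do not enter this fold, so the settings that changed them could not alter it. With strong lists of 15000 and partner lists of 30000, the windows held 25 strong peaks in the knockout, 24 in control and 26 in vehicle, 4 genes had a strong start site peak in the knockout, with 0 gained and 1 lost in the knockout comparison and 0 gained in rotenone. With lists of 60000 and 120000 the strong peaks numbered 78 in the knockout, 72 in control, 77 in rotenone and 72 in vehicle, with 12 lost in the knockout, 11 gained and 16 lost in rotenone, and 1 gained and 2 lost in vehicle. Ranking by fold gave 0 lost in rotenone. Asking for 50% of a peak to be covered gave 5 lost in the knockout, 5 gained and 6 lost in rotenone, and 1 gained and 2 lost in vehicle. Leaving out peaks under 100 bp gave 2 gained and 1 lost in the knockout, 3 lost in rotenone and 1 lost in vehicle. Windows of 10000 bp held 23 strong peaks in the knockout, 23 in control, 23 in rotenone and 24 in vehicle, with 1 gained in the knockout, and windows of 100000 bp gave 2 lost in the knockout, 3 in rotenone and 1 in vehicle. Counting any partner peak, chosen after seeing the data, gave 0 gained in the knockout and 0 in rotenone, and extending partner peaks by 500 bp, also chosen then, moved none of these counts by over 1.5 times. Of the start site folds recomputed, 191 stayed and 8 moved, all with the 2500 bp window at Ppargc1a and Mfn2. The 191 include those under changed list lengths, which could not move. The cause was not tested where a count moved.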
